A study of Homo sapiens with 14 samples.

Results

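The 10 genes described here, AXIN2, LGR5, ASCL2, NKD1, NOTUM, RNF43, ZNRF3, SP5, DKK1 and DKK4, are negative feedback regulators, transcriptional targets and DKK antagonists of the WNT pathway. They were chosen by name, and the single-cell tables list 36601 genes in all. Their levels were followed in SW620, a colorectal cancer cell line from a lymph node metastasis, during 15 days of long-term culture without passage, in which the cells grow as colonies and later also outside them. Both a control and an altered version of the line were grown. The cells labelled SW620 are described in the study, for the single cells, as expressing a FLAG control, and those labelled SW620-TET2CD carried the catalytic domain of TET2, a dioxygenase that oxidizes 5-methylcytosine in DNA. Single-cell RNA-seq held 8 libraries, 1 of each version on days 6, 9, 12 and 15. Bulk RNA-seq held 6 libraries: cells inside and cells outside the colonies of both versions on day 15, whole SW620 cultures on day 6, and whole cultures on day 6 of SW480, a second colorectal cancer line derived from the same patient. No condition had a second library, so every test below took its error from libraries that differed in day, version or location. Part or all of that error was a trend shared over genes, and p-values say nothing of the spread between repeated cultures. Per the methods, digested day 15 cultures were passed through a strainer, where the cells that went through counted as outside and the retained colonies as inside, so the 2 locations of a version are described as parts of 1 suspension and not as separate cultures.

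In canonical WNT signalling, a secreted WNT ligand bridges a Frizzled receptor and an LRP5 or LRP6 co-receptor, the cytoplasmic complex that destroys β-catenin stops working, and β-catenin joins TCF/LEF factors on DNA. Genes switched on in this way are read as the transcriptional output of the pathway, and many of them restrain it at another level. AXIN2 is a scaffold of the destruction complex, NKD1 binds Dishevelled, NOTUM is a secreted enzyme that removes the lipid a WNT ligand needs, and RNF43 and ZNRF3 are membrane ubiquitin ligases that take Frizzled off the cell surface. LGR5 is an R-spondin receptor and a marker of intestinal stem cells, ASCL2 is a transcription factor of the same cells, and SP5 is a transcription factor of the Sp family induced by WNT. DKK1 and DKK4 are secreted proteins that bind LRP5 and LRP6 and block them. SW480 and SW620 carry a truncated APC, so β-catenin is active in them without added ligand.

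All 10 are protein-coding genes. In GRCh38 (GENCODE annotation) AXIN2 lies at chr17:65528563-65561648, NOTUM at chr17:81952507-81961840 and RNF43 at chr17:58353676-58417595, all 3 on the minus strand, as is ASCL2 at chr11:2268498-2270588. LGR5 at chr12:71439798-71586310, NKD1 at chr16:50548396-50649249, ZNRF3 at chr22:28883572-29057488, SP5 at chr2:170715337-170718078 and DKK1 at chr10:52314281-52318042 are on the plus strand. RefSeq promoter windows (GRCh38.p14, 250 bases before to 50 after the gene start) were used for SP5, DKK1 and RNF43. No window was used for the other 7 genes, so the matches say nothing of the 10 genes as a set. The 2 that held the TCF/LEF core motif CTTTGA on either strand (its reverse complement is TCAAAG) are shown, to give the motif in its surroundings, with the matches in capitals.
SP5, chr2:170715087-170715386, plus strand: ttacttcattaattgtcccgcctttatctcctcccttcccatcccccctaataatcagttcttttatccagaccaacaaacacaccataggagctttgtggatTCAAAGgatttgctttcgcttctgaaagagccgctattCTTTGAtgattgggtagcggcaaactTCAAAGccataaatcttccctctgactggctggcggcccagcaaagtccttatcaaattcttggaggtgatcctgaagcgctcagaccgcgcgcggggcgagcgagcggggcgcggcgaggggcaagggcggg
DKK1, chr10:52314031-52314330, plus strand: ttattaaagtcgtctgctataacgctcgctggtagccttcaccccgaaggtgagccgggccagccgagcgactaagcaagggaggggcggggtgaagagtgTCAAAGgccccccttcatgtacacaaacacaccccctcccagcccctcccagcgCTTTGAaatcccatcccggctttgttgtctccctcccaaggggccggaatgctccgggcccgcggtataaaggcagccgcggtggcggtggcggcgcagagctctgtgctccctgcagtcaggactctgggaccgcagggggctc
The SP5 window held 3 matches that did not overlap and the DKK1 window held 2. Of all 35116 promoter windows of the same length, 12.9% held at least 1 match, 1.29% at least 2 and 0.0997% at least 3. Neither of the 2 RNF43 windows (5 and 0 CpG) held these letters. The SP5 window had 17 CpG and the DKK1 window 20, against a median of 14 over all windows. A match of letters is a description and shows no binding.

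In single cells the libraries held 3894 to 8154 kept cells and 48186195 to 74185723 UMIs, and levels are given as CPM, the UMIs of a gene per 1000000 UMIs summed over the kept cells of a library. Median UMIs per kept cell ranged from 6640 (SW620 on day 9) to 13479 (SW620 on day 6), and 1 to 23 barcodes were shared between any 2 libraries, at most 0.334% of the smaller one. Bulk libraries held 1.65e+07 to 2.58e+07 expected counts. TET2, which checks the labels of the transgene, was at 2.11 to 3.90 CPM in the 4 SW620 libraries. In SW620-TET2CD it fell with time, at 107, 59.5, 40.2 and 41.6 CPM on days 6, 9, 12 and 15. The log2 fold change there of days 12 and 15 against days 6 and 9 was -1.20 ± 0.26 (SE), and -1.60 to -0.70 with 1 library left out. The epithelial markers EPCAM (496 to 639 CPM) and KRT8 (2991 to 4327 CPM) were high in each single-cell library, but KRT20 (at most 0.965 CPM) and CDX1 (at most 0.207 CPM) were near 0. The leukocyte marker PTPRC reached at most 0.0197 CPM, and 2 of the 8 leukocyte markers were at 0 in every library. The summed leukocyte list was nevertheless 7.49 to 17.5 CPM on days 6 and 9 and 24.0 to 57.6 CPM on days 12 and 15, mostly LYZ and CD68, and the fibroblast list, mostly LUM, was 16.6 to 28.7 CPM and 8.37 to 12.9 CPM. The summed level of 16 cell-cycle genes was 2084 to 2515 CPM on days 6 and 9 and 277 to 589 CPM on days 12 and 15. The part of the leukocyte and fibroblast markers in the time results below was not tested.

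Bulk TPM, which is scaled to transcript length, allows the genes to be ranked. Over the 4 day 15 libraries NOTUM (537 ± 116 TPM, SD, n = 4) and NKD1 (465 ± 89.0 TPM) were highest, and their ranges overlapped. ASCL2 (101 ± 14.0 TPM), SP5 (84.9 ± 27.4 TPM) and AXIN2 (81.8 ± 10.0 TPM) came next, and the 3 did not differ beyond their spread. ZNRF3 (29.1 ± 3.27 TPM) and RNF43 (24.9 ± 2.45 TPM) also overlapped each other and stood above LGR5 (12.3 ± 4.09 TPM). DKK1 was lowest at 1.09 ± 0.219 TPM. DKK4 has no single place in this order, since it ran from 0.23 to 734 TPM. These SDs are taken over both versions of the line and both locations.

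How many single cells showed each transcript was counted after thinning each cell to 3000 UMIs. These shares are not scaled to transcript length and do not rank the genes. At least 1 UMI of NKD1 was found in 67.9% to 84.7% of the cells of a library, of NOTUM in 39.2% to 72.0%, of ASCL2 in 16.9% to 46.4% and of SP5 in 17.0% to 35.1%. ZNRF3 was seen in 11.7% to 19.2% of cells, RNF43 in 10.7% to 16.9%, AXIN2 in 7.77% to 16.5% and LGR5 in 0.647% to 4.33%. DKK1 was seen in at most 0.346% of cells and DKK4 in at most 0.632%. Without thinning the highest shares were 99.0% for NKD1, 49.6% for AXIN2 and 17.8% for LGR5, so a cell with no UMI of AXIN2 or LGR5 cannot be called negative at this depth. A median of 2 or 3 of the 8 targets other than the DKK genes was seen per thinned cell. Cells with none of them made up 1.68% to 3.83% on days 6 to 12 and 13.7% (SW620) and 9.04% (SW620-TET2CD) on day 15.

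The question of the time course is whether this transcriptional output changes as the colonies leave the growing phase. AXIN2 and LGR5 were the 2 genes that fell when days 12 and 15 were compared with days 6 and 9. AXIN2 on days 6, 9, 12 and 15 was at 58.1, 43.8, 45.5 and 29.2 CPM in SW620 and at 52.0, 53.3, 48.0 and 44.8 CPM in SW620-TET2CD. Its mean was 51.8 ± 5.97 CPM (SD, n = 4) early and 41.9 ± 8.56 CPM late, and the 2 periods overlapped. The log2 fold change was -0.43 ± 0.14 (SE, adjusted p = 0.024, from the quasi-likelihood test of edgeR). LGR5 was at 15.2, 9.57, 9.79 and 2.44 CPM in SW620 and at 12.5, 10.1, 9.71 and 4.51 CPM in SW620-TET2CD, with the day 15 library the lowest of both. Its log2 fold change was -0.96 ± 0.37 (adjusted p = 0.043).

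Both calls were close to the threshold. With upper-quartile scaling, which moved the median of all genes by 0.17 upward on the log2 scale, AXIN2 changed by -0.25 (adjusted p = 0.16) and LGR5 by -0.77 (adjusted p = 0.097), and neither passed. LGR5 also missed the threshold with DESeq2 (adjusted p = 0.090), in cells under a cell-cycle limit (adjusted p = 0.12), and without any 1 of the 4 libraries of days 6 and 15 (adjusted p = 0.068 to 0.12). AXIN2 missed it without SW620 on day 6 (adjusted p = 0.086), SW620 on day 15 (adjusted p = 0.059) or SW620-TET2CD on day 15 (adjusted p = 0.057), and passed narrowly in the cells under the cell-cycle limit (-0.38, adjusted p = 0.048).

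The other 8 genes did not pass between the periods, and 2 of 10, both lower, are to be read against 58.0% of all 16526 genes tested, or 28.6% for lower. The fitted log2 fold changes were -0.48 ± 0.27 for ASCL2, -0.28 ± 0.26 for SP5, 0.13 ± 0.26 for NOTUM and 0.13 ± 0.14 for RNF43. NKD1 (-0.0073 ± 0.12) and ZNRF3 (0.0066 ± 0.11) had the narrowest errors. The median over the 10 genes was -0.046, against 0.036 over all genes. ASCL2 passed without SW620 (-0.75, adjusted p = 0.038) or SW620-TET2CD (-0.73, adjusted p = 0.027) on day 12, and DKK1 without SW620 on day 15 (-0.98, adjusted p = 0.020). In neither version taken alone did any of the 10 pass, where 36.1% (SW620) and 31.7% (SW620-TET2CD) of all genes did. Of all 17478 genes tested, 18.6% were lower in SW620 and 16.9% in SW620-TET2CD. Without the day 12 library of SW620, AXIN2, LGR5 and ASCL2 passed as lower and DKK1 as higher in that version. The difference of the time effect between the versions passed for 0 of 17478 genes with edgeR and 0 with DESeq2, with 141 and 131 genes under an unadjusted p of 0.05 and none of the 10 among edgeR's.

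**Figure D1:**
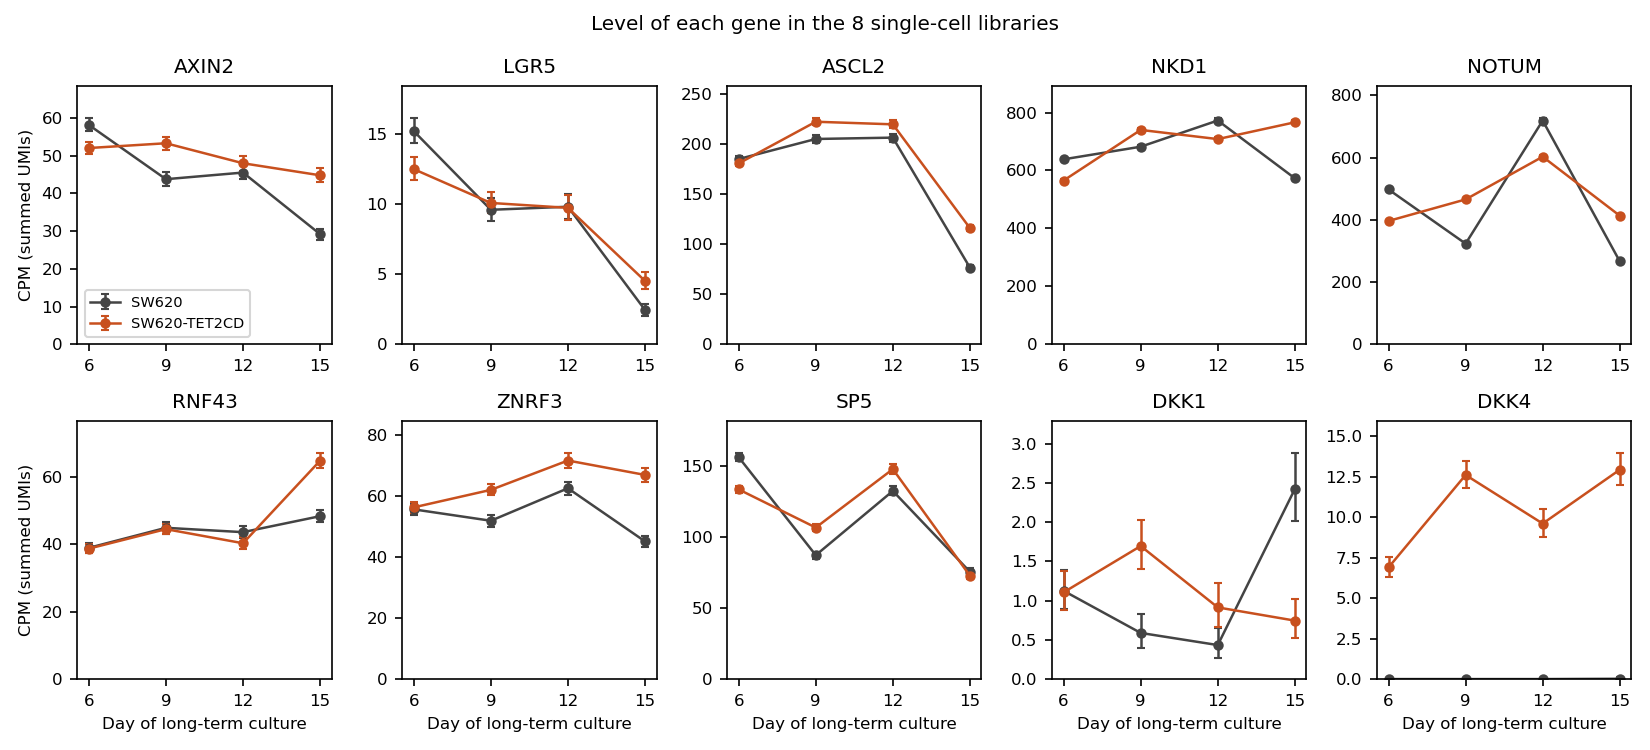
Level of each gene in CPM (summed UMIs per 1000000, axes from 0) against the day of culture in SW620 (grey) and SW620-TET2CD (orange), 1 library per point, with 95% Poisson intervals that cover counting error only. LGR5, ASCL2, NOTUM and SP5 drop between days 12 and 15 in both versions, and DKK4 is at 6.90 to 12.9 CPM in SW620-TET2CD and at 0 to 0.0189 CPM in SW620.

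In the single-cell sums the 2 periods hid a drop at the end of the culture. The steps between neighbouring days were therefore fitted as well, a choice made after the values had been seen. Between days 12 and 15 the 2 stem cell genes LGR5 and ASCL2, the WNT-inactivating enzyme NOTUM and the transcription factor SP5 fell, while the Frizzled ligase RNF43 rose. That is 5 of the 10 genes, against 13.0% of all 17478 genes tested, and 4 fell and 1 rose against 6.40% and 6.56% of all genes. Their median was -0.30 on the log2 scale, against 0.013 over all genes. Bulk held no library of day 12, and in SW620 it did not show falls of ASCL2 and NOTUM from day 6. On day 6, on day 15 inside and on day 15 outside, ASCL2 was at 72.6, 120 and 87.6 TPM. NOTUM was at 381, 668 and 482 TPM, SP5 at 114, 117 and 97.2 TPM and RNF43 at 29.3, 28.1 and 25.6 TPM. LGR5 was lower on day 15, at 26.9, 13.8 and 15.8 TPM. The reason for this gap between the assays was not tested.

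LGR5 fell to 0.249 of its day 12 level in SW620 and to 0.464 of it in SW620-TET2CD (log2 fold change -1.49 ± 0.19, adjusted p = 0.0019). ASCL2 was at 185, 205, 206 and 76.6 CPM in SW620 and at 181, 222, 220 and 116 CPM in SW620-TET2CD. It was thus level over the first 3 days sampled and fell at the last step (-1.15 ± 0.15, adjusted p = 0.0021), and both day 15 libraries were below the other 6. LGR5 and ASCL2 passed at this step with each of the 8 libraries left out in turn.

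SP5 had a jagged course, with 156, 87.2, 132 and 75.5 CPM in SW620 and 134, 107, 148 and 72.8 CPM in SW620-TET2CD. The last step was -0.89 ± 0.17 (adjusted p = 0.0090), and without SW620-TET2CD on day 12 it was -0.75 and missed the threshold (adjusted p = 0.11). NOTUM peaked on day 12 in both versions, at 497, 323, 719 and 266 CPM in SW620 and at 396, 465, 603 and 413 CPM in SW620-TET2CD. Its rise from day 9 to day 12 was 0.64 ± 0.21 (adjusted p = 0.032, where 42.0% of all genes passed). That rise was lost without SW620 on day 9 (adjusted p = 0.42) or day 12 (adjusted p = 0.28) and in cells under the cell-cycle limit (adjusted p = 0.098). SP5 passed at that step (0.41) without either day 15 library. The fall of NOTUM from day 12 to day 15 was -0.96 ± 0.21 (adjusted p = 0.016), and without SW620 on day 12 it was -0.77 (adjusted p = 0.089).

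RNF43 went the other way, from 43.7 to 48.4 CPM in SW620 and from 40.4 to 64.9 CPM in SW620-TET2CD (0.45 ± 0.13, adjusted p = 0.042). This call was lost in 7 of the 8 fits with 1 library left out (adjusted p = 0.069 to 0.34), while the step itself stayed between 0.35 and 0.52. DKK1 had the largest positive step, 1.34 ± 0.63 (adjusted p = 0.18), with a rise from 0.433 to 2.42 CPM in SW620 and values of 0.913 and 0.745 CPM in SW620-TET2CD. Of the 128 DKK1 UMIs of SW620 on day 15, 66 lay in 4 of 6913 cells, with up to 34 in 1 cell. ZNRF3, the paralogous ligase, was at 55.7, 52.0, 62.7 and 45.2 CPM in SW620 and at 56.4, 62.1, 71.8 and 67.0 CPM in SW620-TET2CD, with a last step of -0.26 ± 0.13 (adjusted p = 0.21). NKD1 stayed between 565 and 772 CPM in all 8 libraries, with a last step of -0.13 ± 0.17 (adjusted p = 0.64). AXIN2 changed by -0.34 ± 0.14 at that step (adjusted p = 0.14), and by -0.48 (adjusted p = 0.042) without SW620-TET2CD on day 15.

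Kept cells under a limit of 500 cell-cycle UMIs per 1000000 made up at most 29.4% of the libraries of days 6 and 9 and 82.3% to 93.7% of those of days 12 and 15. Summed over such cells alone, the last step was -1.57 for LGR5, -1.15 for ASCL2, -1.01 for NOTUM, -0.89 for SP5 and 0.52 for RNF43. All 5 passed, but the share of all genes called in that fit is not given, so this count is not read as a result. Leaving out SW620-TET2CD on day 12 cut the number of all genes called at this step from 2266 to 269. From day 6 to day 9, none of the 10 genes passed with edgeR, where 0.887% of all genes did. SP5 (-0.60) passed there with DESeq2 (adjusted p = 0.024), and LGR5, SP5 and DKK4 passed without either day 15 library.

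**Figure D2:**
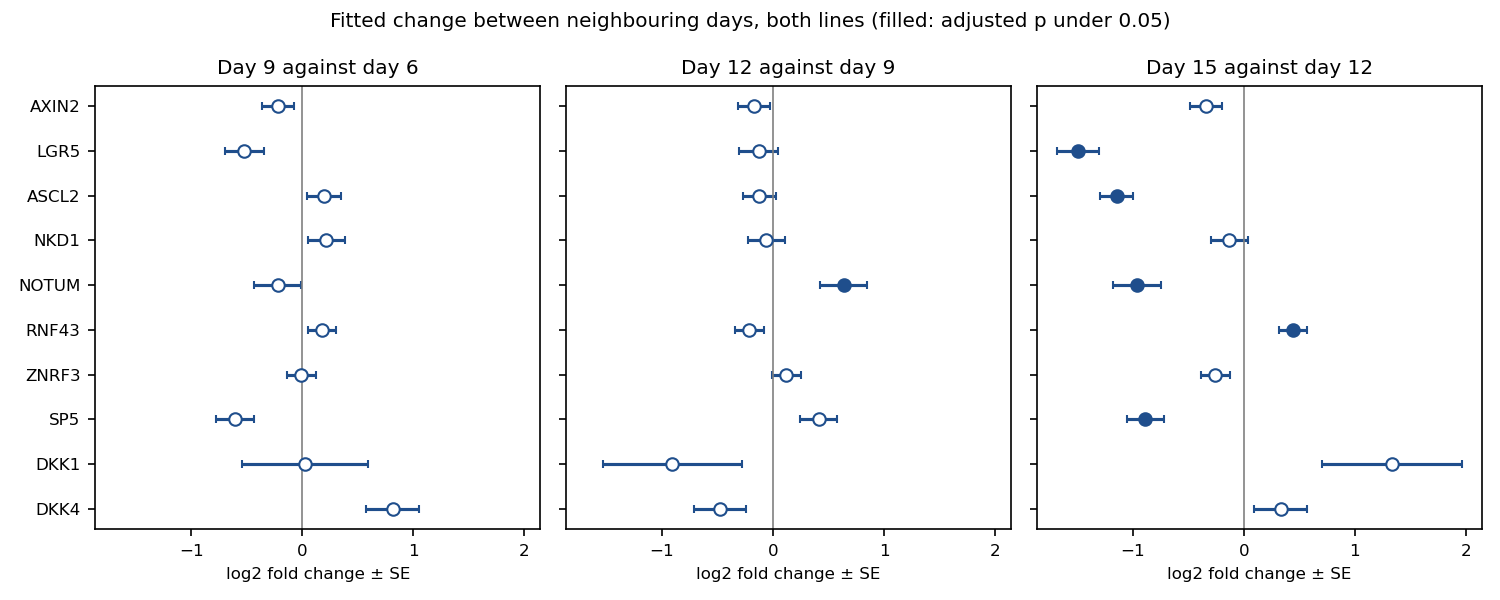
Fitted log2 fold change with its SE (horizontal axis) of each gene for the steps from day 6 to 9, 9 to 12 and 12 to 15, both versions together. Filled points passed an adjusted p of 0.05: NOTUM at the second step, and LGR5, ASCL2, NOTUM, SP5 (lower) and RNF43 (higher) at the third, with the losses on leaving out single libraries given in the text.

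The second question is how these genes differ between the version with the TET2 catalytic domain and the control. With 1 library of each version per day, an effect of the domain cannot be told apart from any other difference between the versions. DKK4, a gene of chromosome 8, was the only 1 of the 10 to pass between SW620-TET2CD and SW620 over the 4 days, where 4.21% of all genes did (2.37% higher and 1.85% lower). SW620 held 0 DKK4 UMIs on days 6, 9 and 12 and 1 on day 15, whereas SW620-TET2CD held 512, 915, 463 and 660, which is 6.90, 12.6, 9.61 and 12.9 CPM. The groups did not overlap. Against the level that 3 UMIs would have given in the SW620 library of the same day, DKK4 was at least 170-fold higher for day 6, 229-fold for day 9, 163-fold for day 12 and 228-fold for day 15. Pooled over the days it was 2404-fold higher (95% exact interval for counting error only 431 to 9.50e+04), from 2550 UMIs against 1. The edgeR test gave an adjusted p of 4.3e-09. DKK4 met the filter on low counts only through the SW620-TET2CD libraries, where it is high. The call therefore adds no support to the counts themselves. A fitted fold change depends on the prior count here and is not given.

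The other 9 genes did not pass between the versions. Their fitted log2 differences (SW620-TET2CD minus SW620) ran from -0.060 ± 0.12 for SP5 to 0.16 ± 0.092 for ZNRF3. AXIN2 was 0.10 ± 0.10 higher and NKD1 0.043 ± 0.12 lower. DKK1, the other DKK gene, was at 0.433 to 2.42 CPM in SW620 and at 0.745 to 1.70 CPM in SW620-TET2CD (0.034 ± 0.43, adjusted p = 0.99). The median of the 9 was 0.034, against -0.0035 over all genes.

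In kept SW620-TET2CD cells, DKK4 came from few cells. Of 24383 kept SW620-TET2CD cells, 214 held at least 1 DKK4 UMI and 81 (0.332%) held at least 5. Those with at least 5 were 24 cells on day 6, 26 on day 9, 11 on day 12 and 20 on day 15, and they carried 88.3% to 94.2% of the DKK4 UMIs found in kept cells. Over every barcode the libraries held 604, 1740, 2909 and 2494 DKK4 UMIs on the 4 days, against 512, 915, 463 and 660 in kept cells, so on days 12 and 15 most DKK4 UMIs lay in barcodes outside the limits. Single cells reached 54, 144, 115 and 113 DKK4 UMIs on the 4 days. In thinned cells the variance of the DKK4 count was 9.77 to 24.3 times its mean, whereas for AXIN2 this ratio was 1.04 to 1.11, for NKD1 1.36 to 2.11 and for NOTUM 1.28 to 2.60. For DKK1 the ratio reached 6.79, so DKK1 was also unevenly spread in some libraries. In SW620-TET2CD on day 9, 1 kept cell held 62 of the 123 DKK1 UMIs. In SW620, 0 of 5547, 0 of 7509 and 0 of 3930 kept cells held a DKK4 UMI on days 6, 9 and 12. Counted as 3 cells of the total, this allows shares of cells with a detected UMI of up to 0.0541%, 0.0400% and 0.0763%. The upper bounds of the two-sided 95% Clopper-Pearson intervals are 0.0665%, 0.0491% and 0.0938%. A cell without a UMI may still hold the transcript. On day 15, 1 of 6913 cells held one. In SW620-TET2CD the share on day 6 was 0.736%, with a 95% Clopper-Pearson interval from 0.562% to 0.946%. It was 1.02% (0.793% to 1.30%) for day 9, 1.03% (0.735% to 1.40%) for day 12 and 0.815% (0.602% to 1.08%) for day 15. Free DKK4 RNA in these libraries has no measured level, since SW620 libraries hold almost none, so the part of free RNA in the shares with 1 or more UMI was not tested.

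**Figure D3:**
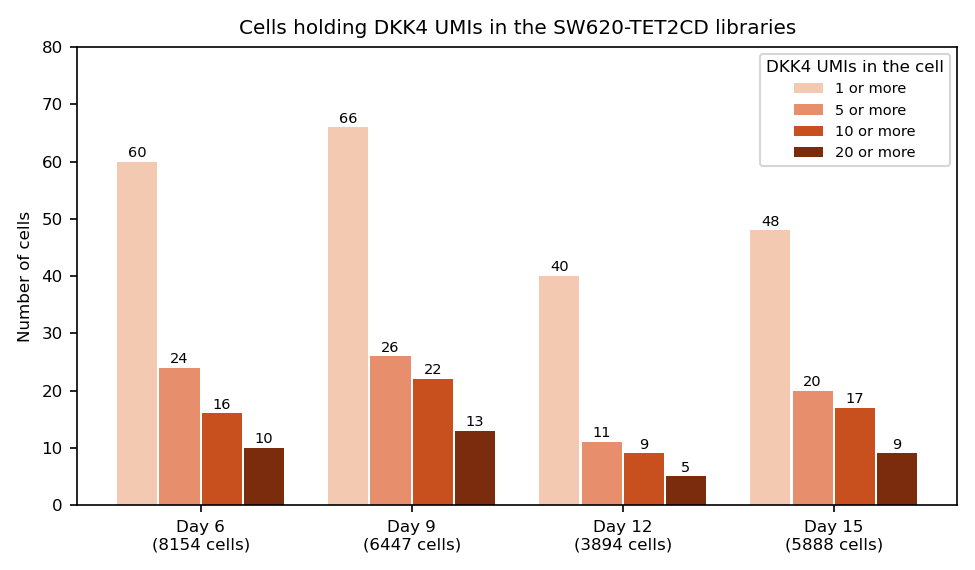
Number of kept cells (vertical axis) with at least 1, 5, 10 or 20 DKK4 UMIs in each SW620-TET2CD library, with the number of kept cells under each day. Between 11 and 26 cells per library held 5 or more, and 5 to 13 held 20 or more.

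Whether DKK4 rose or fell with time depended on the cells summed. In the kept cells the late against early difference was 0.083 ± 0.29 (adjusted p = 0.82). Over every barcode, DKK4 was at 7.03, 15.3, 28.3 and 31.9 CPM on the 4 days in SW620-TET2CD and the difference was 1.22 ± 0.35 (adjusted p = 0.016). In kept cells under the cell-cycle limit it was at 12.6, 28.5, 9.04 and 12.1 CPM and the difference was -1.01 ± 0.32 (adjusted p = 0.025). No direction over time can be given for DKK4.

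Most DKK4-high cells also held TET2 transcripts. Among the cells with at least 5 DKK4 UMIs, 70.0% to 81.8% held a TET2 UMI, against 16.9% to 27.5% of the cells without DKK4. The DKK4 level did not rise steadily with the number of TET2 UMIs. On day 9, DKK4 was at 4.15 CPM in cells with 0 TET2 UMIs, 49.7 CPM in cells with 1 to 2, 21.9 CPM in cells with 3 to 9 and 0 CPM in the 41 cells with 10 or more. On day 15 the same bins gave 5.27, 36.5, 68.9 and 0 CPM, the last from 14 cells. They gave 1.60, 14.4, 26.2 and 13.4 CPM on day 6 and 4.57, 8.14, 67.0 and 4.75 CPM on day 12. On days 6, 12 and 15 the level thus rose up to the bin of 3 to 9 TET2 UMIs and was lower above it. At most 26 cells per library set most of these values.

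The cells that carried at least 3 TET2 UMIs were next compared with cells that carried 0 within the same SW620-TET2CD libraries (246 to 1052 against 3131 to 5880 cells per library). TET2 chose the cells and is not read. DKK4 and ASCL2 were higher and NOTUM was lower in the TET2-high cells, that is 3 of the 10 genes, against 16.5% of all 14964 genes tested (8.87% higher and 7.60% lower). DKK4 in TET2-high and TET2-negative cells was at 24.3 and 1.60, 20.2 and 4.15, 63.5 and 4.57, and 64.4 and 5.27 CPM in the libraries of days 6, 9, 12 and 15 (log2 fold change 3.30 ± 0.21, adjusted p = 4.0e-07). With a minimum of 5 TET2 UMIs, DKK4 stayed higher on days 6, 9 and 12, at 34.5, 26.9 and 37.4 CPM. On day 15 it was then at 4.02 CPM, from 4 UMIs, below the 5.27 CPM of the TET2-negative cells.

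NOTUM was at 290 and 420 CPM on day 6, 394 and 477 CPM on day 9, and 448 and 633 CPM on day 12, and did not differ on day 15 (414 and 415 CPM). Its log2 fold change was -0.42 ± 0.072 (adjusted p = 0.0015). ASCL2 was at 177 and 178 CPM on day 6, 274 and 211 CPM on day 9, 283 and 209 CPM on day 12, and 188 and 107 CPM on day 15 (0.30 ± 0.094, adjusted p = 0.043). The ASCL2 call was lost with DESeq2 (adjusted p = 0.092), with a minimum of 5 TET2 UMIs (adjusted p = 0.13) and without day 9, 12 or 15 (adjusted p = 0.11 to 0.25). AXIN2 changed by -0.12 ± 0.065 (adjusted p = 0.27). TET2-high cells held more UMIs, with medians of 10002 to 14163 against 8042 to 12218, and the part of this depth in the differences was not tested.

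The DKK4-high cells were then set against the DKK4-negative cells of the same library, a comparison added after the values had been seen. Of the 9 other genes, AXIN2, ASCL2, NKD1, SP5 and DKK1 were higher and NOTUM was lower in the DKK4-high cells, against 6.79% of all 14191 genes tested (2.52% higher and 4.28% lower). AXIN2 was at 59.7, 141, 154 and 107 CPM in the DKK4-high cells of days 6, 9, 12 and 15, from 15, 41, 21 and 21 UMIs, and at 51.8, 53.0, 47.4 and 44.6 CPM in the negative cells (log2 fold change 0.92 ± 0.20, adjusted p = 0.00028). NKD1 was at 805, 1088, 1022 and 1581 CPM against 564, 739, 707 and 761 CPM (0.41 ± 0.12, adjusted p = 0.013). SP5 was at 243, 137, 294 and 189 CPM against 133, 106, 147 and 72.2 CPM (0.64 ± 0.16, adjusted p = 0.0018). ASCL2 was at 283, 281, 331 and 296 CPM against 180, 222, 219 and 115 CPM (0.46 ± 0.14, adjusted p = 0.020). All 4 were higher in the DKK4-high cells of every library. The p-values of this comparison took their error from a trend shared by all genes. The spread of a single gene between libraries did not enter them.

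DKK1 rested on 3, 6, 1 and 1 UMIs in the DKK4-high cells of the 4 libraries (3.22 ± 0.74, adjusted p = 0.00052). NOTUM was lower on days 6, 9 and 12 and higher on day 15, at 307, 367, 500 and 495 CPM against 396, 467, 603 and 413 CPM. Its fitted log2 fold change was -0.44 ± 0.13 (adjusted p = 0.016). That value lay below the log2 ratio of CPM in each library (-0.37, -0.35, -0.27 and 0.26) and does not summarise them. NOTUM missed the threshold with DESeq2 (adjusted p = 0.39) and upper-quartile factors (adjusted p = 0.32). LGR5, with 0, 3, 2 and 1 UMIs in the DKK4-high cells, differed by -0.67 ± 0.63 (adjusted p = 0.66). ZNRF3 differed by 0.52 ± 0.20 (adjusted p = 0.093), and passed with upper-quartile factors (0.67, adjusted p = 0.020) and without day 6 (0.86, adjusted p = 0.0053). ASCL2 missed the threshold without day 15 (adjusted p = 0.20). Without the day 9 library, 2 of the 9 genes passed, and AXIN2 (adjusted p = 0.053), NKD1 (adjusted p = 0.097) and DKK1 (adjusted p = 0.16) did not. The median over the 9 genes was 0.46 against -0.17 over all genes, and upper-quartile factors moved the latter by 0.14. DKK4-high cells carried more TET2, at 163 to 351 CPM against 39.0 to 105 CPM. Only 11 to 26 cells per library stood on the DKK4-high side.

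**Figure D4:**
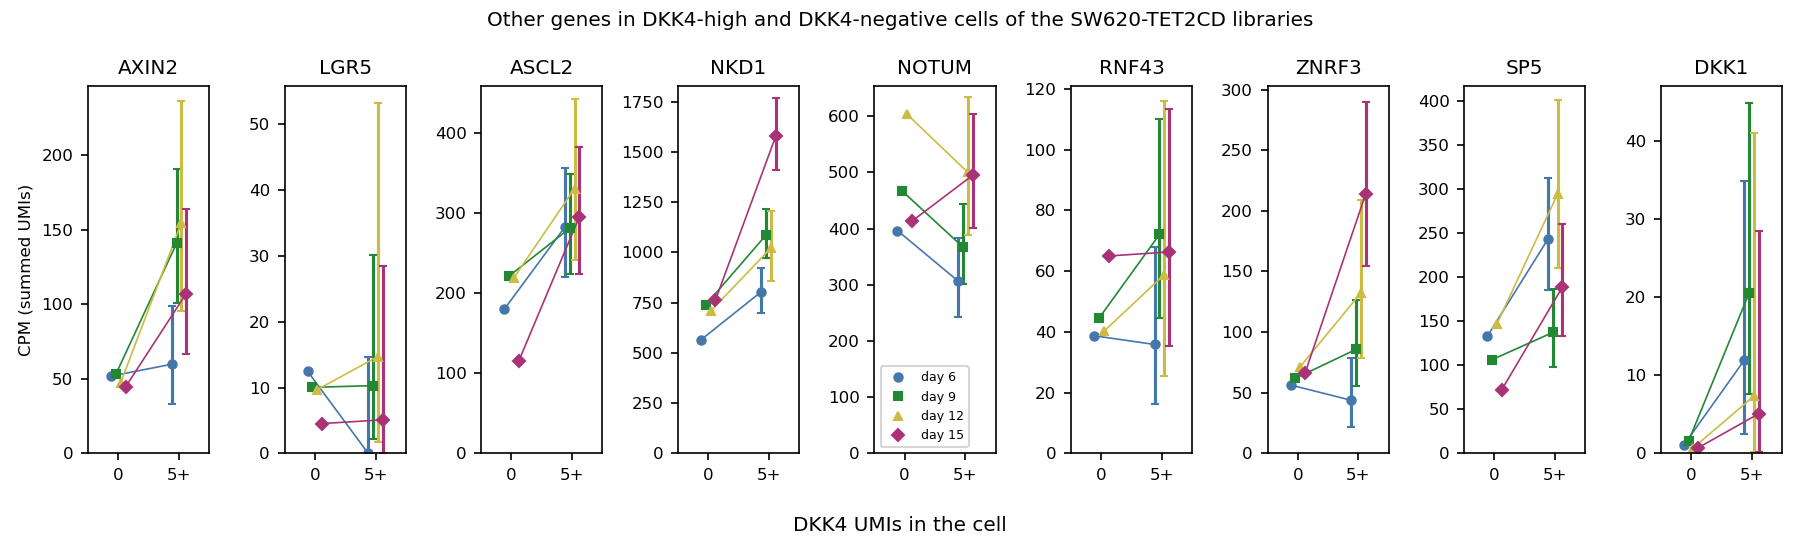
CPM (axes from 0) of the other 9 genes in cells with 0 DKK4 UMIs and cells with 5 or more, with lines joining the 2 sums of each SW620-TET2CD library and 95% Poisson intervals on the DKK4-high side. AXIN2, ASCL2, NKD1, SP5 and DKK1 are higher in the DKK4-high cells on all 4 days, and NOTUM is lower on days 6, 9 and 12 only.

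Sparse counts hold correlations between genes over thinned cells near 0, so low values do not show that the targets vary independently. The highest correlations of log values were 0.0767 to 0.251 between NKD1 and NOTUM and 0.0528 to 0.248 between ASCL2 and NOTUM in the 8 libraries. Across the 8 libraries, whose log levels share library and depth, Pearson's r was 0.90 between AXIN2 and LGR5 and 0.89 between LGR5 and ASCL2, as a description. Outside the 10 genes, ACAD8 (r = 0.983, 9.23 to 16.7 CPM), MTPAP (r = 0.982, 13.6 to 18.9 CPM) and PCID2 (r = 0.976, 54.4 to 101 CPM) had the pattern most like that of AXIN2 among 10048 genes with a mean of at least 5 CPM. ACAD8 is a mitochondrial acyl-CoA dehydrogenase and MTPAP a mitochondrial poly(A) polymerase.

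The bulk libraries of day 15 asked whether cells outside the colonies differ from cells inside. In bulk RNA a change cannot be told apart from a change in the share of cells that express a gene. DKK4 was at 30.1 TPM inside and 734 TPM outside the SW620-TET2CD colonies (365 and 10430 expected counts), and at 0.28 and 0.23 TPM in SW620 (4 and 3 expected counts). NOTUM was lower outside in both versions, at 668 inside and 482 TPM outside in SW620 and at 592 and 405 TPM in SW620-TET2CD. NKD1 moved in opposite directions, from 538 to 463 TPM in SW620 and from 341 to 519 TPM in SW620-TET2CD. LGR5 was at 13.8 and 15.8 TPM in SW620 and at 13.2 and 6.38 TPM in SW620-TET2CD. The inside and outside libraries of SW620-TET2CD also differed in TET2, at 38.1 and 124 TPM. In the fit over both versions the 16 cell-cycle genes had a median log2 change of 0.92, against 0.0053 over all genes. What part TET2 and the cell cycle had in the location differences was not tested.

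With 1 residual degree of freedom, no gene passed between outside and inside with edgeR (0% of 17722, with 1068 at an unadjusted p under 0.05), and 23 genes, none of the 10, passed with DESeq2. For DKK4 the fit gave 4.37 ± 0.47 (adjusted p = 0.77), and -0.25 without either SW620-TET2CD library, and for NOTUM -0.55 ± 0.12 (adjusted p = 0.77). Without the filter on low counts, 472 genes passed, among them DKK4 (adjusted p = 3.2e-13) and NOTUM (adjusted p = 0.0027). With 1 residual degree of freedom such p-values rest on an error shared over genes and not on repeated cultures. The fit also assumed 1 location effect for both versions. For DKK4 the log2 ratio of TPM outside over inside was -0.28 in SW620 and 4.61 in SW620-TET2CD. AXIN2 (0.091 ± 0.12), ZNRF3 (0.029 ± 0.11) and DKK1 (-0.043 ± 0.42) had the smallest differences.

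Between the versions on day 15, DKK4 was again the only 1 of the 10 genes to pass in bulk (adjusted p = 0.029), where 0.412% of all genes did. DKK4 met the filter on low counts only through the SW620-TET2CD libraries, so this call adds no support to its levels. It missed the threshold with limma on log2(TPM + 1) (adjusted p = 0.12) and on log2(TPM + 0.1) (adjusted p = 0.12). TET2 was at 1.15 and 1.29 TPM inside and outside in SW620 and at 38.1 and 124 TPM in SW620-TET2CD. SP5 was lower in SW620-TET2CD, at 56.7 and 68.6 TPM against 117 and 97.2 TPM (-0.72 ± 0.12, adjusted p = 0.082), and passed with DESeq2 (adjusted p = 0.0038). In single cells on the same day SP5 was at 72.8 CPM in SW620-TET2CD and 75.5 CPM in SW620. DKK4 thus took up 30.1 and 734 TPM in bulk, while the single-cell library of day 15 gave 12.9 CPM in kept cells and 31.9 CPM over every barcode. The 2 scales differ, and the reason for the gap was not tested.

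**Figure D5:**
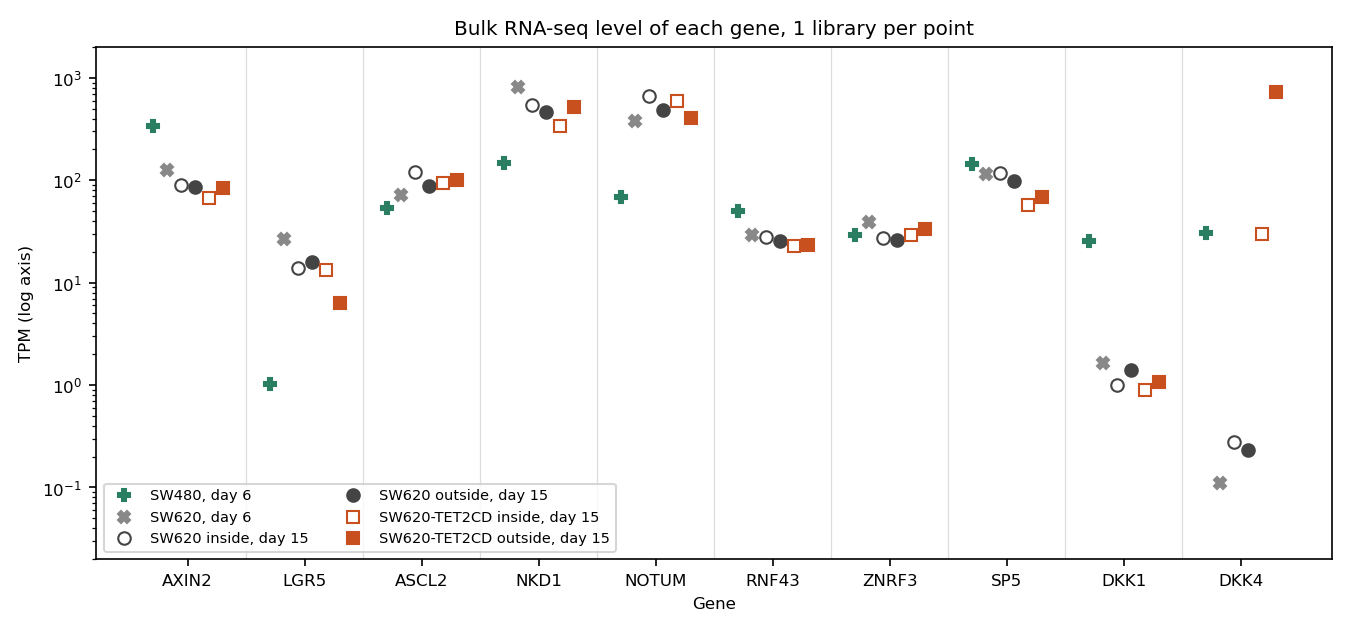
Bulk TPM (log axis) of each gene in the 6 bulk libraries, 1 library per point, open symbols for cells inside and filled symbols for cells outside the colonies on day 15. DKK4 spans 0.11 to 734 TPM, and SW480 stands apart from SW620 for AXIN2, LGR5, NKD1, NOTUM, DKK1 and DKK4.

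On day 6, SW480 had another mix of these genes than SW620. With 1 library each there is no test. AXIN2 was at 337 TPM in SW480 and 125 TPM in SW620, and RNF43 at 49.97 and 29.3 TPM. LGR5 was at 1.03 TPM in SW480 and 26.9 TPM in SW620, NKD1 at 147 and 805 TPM, and NOTUM at 69.3 and 381 TPM. Both DKK genes were seen in SW480, DKK1 at 25.6 TPM and DKK4 at 30.3 TPM, and near 0 in SW620, at 1.64 and 0.11 TPM. SP5 (145 and 114 TPM), ASCL2 (54.2 and 72.6 TPM) and ZNRF3 (29.2 and 39.5 TPM) were closer together. TET2 was at 2.93 TPM in SW480 and 1.38 TPM in SW620.

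The rest of the pathway shows which other levels moved beside the 10 genes, counted in lists chosen with earlier results known. Between late and early days 29.4% of all genes tested rose and 28.6% fell, 58.0% in all, and the counts below are to be read against these shares. Ligands and R-spondins come first. No R-spondin gene exceeded 0.0197 CPM, and none of the 4 was tested. Of the 21 genes for WNT ligands and their secretion, 11 were tested. Between late and early days 5 rose and 1 fell, the only one at 5 CPM or more being PORCN, the enzyme that adds the lipid to WNT (15.6 to 19.8 CPM early, 19.2 to 56.5 CPM late, 0.78 ± 0.26). These 6 of 11 compare with 58.0% of all genes. At the last step 5 of 12 ligand and secretion genes rose and 2 fell, against 13.0% of all genes called. Those at 5 CPM or more were PORCN (0.97 ± 0.19) and WLS (0.45 ± 0.14, adjusted p = 0.0498), which rose, and WNT6 (-0.56 ± 0.14), which fell.

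Of the 16 receptor and co-receptor genes tested, 6 rose and 2 fell late, against 29.4% and 28.6% of all genes. The receptor FZD10 rose from 8.86 to 13.2 CPM early to 26.3 to 29.0 CPM late (1.24 ± 0.15), the co-receptors LRP6 (0.54 ± 0.12) and LRP5 (0.37 ± 0.14) rose and FZD5 fell (-0.59 ± 0.14). Of 9 other antagonists tested, 3 rose and 2 fell, again close to the 58.0% of all genes called. SFRP5, a secreted decoy receptor for WNT, went from 66.3, 30.6 and 9.60 to 2.69 CPM in SW620 and from 40.9, 23.6 and 5.77 to 2.49 CPM in SW620-TET2CD (-3.09 ± 0.42, adjusted p = 0.00017), a fall at every step in both versions. APCDD1, a membrane inhibitor of WNT, was higher late (0.86 ± 0.23) but fell at the last step (-0.72 ± 0.16, adjusted p = 0.018), with 17.0, 21.0, 45.4 and 21.4 CPM in SW620 and 11.7, 21.1, 41.3 and 30.5 CPM in SW620-TET2CD. BAMBI, which was counted in this list although it is a pseudoreceptor of the TGF-β receptor family, fell (-0.62 ± 0.17).

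In the destruction complex and Dishevelled list 6 of 16 rose, among them the tankyrases TNKS (0.91 ± 0.15) and TNKS2 (0.59 ± 0.14), which mark AXIN proteins for degradation, and 2 fell, the kinase gene GSK3A (-0.93 ± 0.11) and DVL2 (-0.53 ± 0.12). These 8 of 16 are no more than the 58.0% of all genes called. Of 11 nuclear complex genes tested 5 rose, including TCF7L2 (0.83 ± 0.17), the corepressor TLE3 (0.65 ± 0.15) and BCL9L (0.48 ± 0.14), and 1 fell, where 29.4% and 28.6% of all genes did. Of 20 other TCF target genes 4 rose and 7 fell, which is 11 called against 58.0% of all genes. VEGFA (3.25 ± 0.19), PLAUR (3.08 ± 0.50) and SOX9 (1.22 ± 0.15) were among those that rose and BIRC5, which is also a mitosis gene, fell most (-2.77 ± 0.26). The medians of these lists were 0.33 for ligands, 0.33 for receptors, -0.12 for antagonists, 0.049 for the destruction complex, 0.47 for the nuclear complex and -0.31 for the other targets, against 0.036 over all genes. At the last step 2 of these 20 targets rose, PLAUR (1.76 ± 0.28) and FOSL1 (0.86 ± 0.18), and 5 fell, among them TDGF1 (-1.42 ± 0.18) and EPHB2 (-0.84 ± 0.17), where 6.56% of all genes rose and 6.40% fell.

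Between the versions 1 of the 11 ligand genes tested was higher and 3 were lower in SW620-TET2CD, all of them under 5 CPM, 1 of 16 receptor genes and 2 of 9 antagonist genes were lower, and 2 of 20 other TCF target genes were higher and 1 lower, where 2.37% of all genes were higher and 1.85% lower, 4.21% in all. The R-spondin receptor LGR6 (-0.59 ± 0.13), SFRP5 (-0.59 ± 0.099) and NKD2 (-0.41 ± 0.093), the paralogue of NKD1, were lower in SW620-TET2CD, and SLC12A2 (0.55 ± 0.097) was higher and VEGFA lower (-0.44 ± 0.095). None of the 16 destruction complex genes and none of the 11 nuclear complex genes passed, which at a share of 4.21% says nothing particular of these lists. In bulk, SFRP5 was at 13.7 and 19.4 TPM in SW620 and 0.45 and 0.49 TPM in SW620-TET2CD, whereas in single cells of the same day it was at 2.69 and 2.49 CPM. CCND1 (0.96 ± 0.098, adjusted p = 0.0495) and WLS (1.64 ± 0.15, adjusted p = 0.046), the carrier of WNT to the cell surface, were higher in bulk. In single cells of day 15 CCND1 was at 262 CPM in SW620 and 235 CPM in SW620-TET2CD, and WLS at 9.59 and 13.7 CPM. In TET2-high cells LGR6 (-1.50 ± 0.14), TDGF1 (-0.80 ± 0.098) and VEGFA (-0.73 ± 0.087) were lower and APCDD1 (0.87 ± 0.11), SLC12A2 (0.80 ± 0.060) and WLS (0.66 ± 0.12) higher. In DKK4-high cells APCDD1 (3.58 ± 0.17) and WNT6 (2.78 ± 0.27) were far above the DKK4-negative cells. Of the 20 other TCF targets 4 were below them, VEGFA (-2.04 ± 0.41), EPHB2 (-1.39 ± 0.29), FOSL1 (-1.09 ± 0.33) and JUN (-0.91 ± 0.13), and 3, named after their values were seen, were above them, LEF1 (4.28 ± 0.52), PPARD (2.28 ± 0.52) and PROX1 (0.66 ± 0.14), where 2.52% of all genes were higher and 4.28% lower. LEF1 averaged 1.38 CPM and PPARD 3.44 CPM over the libraries.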

How the data were processed

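The members, gene lists and comparisons were chosen with earlier results of these data known. For single cells the authors deposited Cell Ranger UMI counts (GRCh38). For bulk they deposited RSEM expected counts and TPM. The submitters' notes name Bowtie and the build mm10 for bulk, although its identifiers are human. Single-cell reads were counted on the 10x Genomics GRCh38 reference, and the sources used here do not state the annotation release of the bulk tables. Kept cells had 200 to 4500 genes, a total of 1000 to 20000 UMIs, and no more than 10% of them mitochondrial (the study's limits), and doublets were not called. UMI counts were summed per library. Expected counts were rounded, and 45 of the 60669 rows, second copies of genes shared by X and Y, were dropped. Tests used edgeR 4.0.16 (filterByExpr, TMM, quasi-likelihood, two-sided, Benjamini-Hochberg over all tested genes, threshold 0.05) with line, day, location or library as a block, in R 4.3.3. The SE beside a fitted log2 fold change is the size of that change divided by the square root of the test's F statistic. Alternatives used DESeq2 1.42.0, limma 3.58.1 on log2(TPM + 1), upper-quartile factors, no filter, other cell limits and each library left out. On counts simulated with a dispersion of 0.05, edgeR recovered 75% of genes given a log2 change of 1 for late against early days, 18% for day 15 against day 12 and 24% for outside against inside. This dispersion was set and not estimated from the data, so these shares do not give the power of the tests above. Thinning left out 884 cells with under 3000 UMIs. Named beside the 10 genes and TET2 are, per list and comparison, up to 4 called genes with a mean of at least 5 CPM, and the 3 genes most like AXIN2. Steps between days and the DKK4-high comparison were added after seeing the data. Numbers came from Python 3.11.15 and R.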

Additional observations from a re-analysis of the deposited data

Results flagged for a closer look

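In bulk, 8 of the 10 genes moved one way between outside and inside in SW620 and the other way in SW620-TET2CD, each from 1 library per location, and the difference was not tested. Of the 21234 genes above 0 TPM in all 4 libraries, 45.9% did the same. The log2 ratios of TPM outside over inside in SW620 and SW620-TET2CD were -0.084 and 0.31 for AXIN2, 0.19 and -1.05 for LGR5, and -0.45 and 0.087 for ASCL2. They were -0.22 and 0.61 for NKD1, -0.13 and 0.048 for RNF43, and -0.056 and 0.21 for ZNRF3. For SP5 they were -0.27 and 0.27, and for DKK4 -0.28 (from 4 and 3 expected counts) and 4.61. The SW480 library of day 6, which entered no test, held DKK1 at 25.6 TPM and DKK4 at 30.3 TPM.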

How the results depend on the processing

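Of the 10 genes, 2 passed between late and early days. The number was 1 with DESeq2, 0 with upper-quartile factors, 4 for day 15 against day 6 only, and 0 to 3 with 1 library left out. Of all genes, 9587 passed in the main fit, 9880 with DESeq2 and 8127 to 10117 with 1 library left out. Between TET2-high and TET2-negative cells 3 of the 10 genes passed, and 6 without the filter on low counts. The share of all genes called is not given for that unfiltered fit or for day 15 against day 6. Neither count is therefore read as a result about the 10 genes. In bulk the number of the 10 genes was 0 for outside against inside and 2 without the filter. Between the versions in bulk it was 1, against 2 with DESeq2, 3 without the filter and 0 with limma on either pseudocount. DKK4 and DKK1 changed sign. For DKK1 late against early was 0.068 with upper-quartile factors, 0.23 for day 15 against day 6 and -0.98 to 0.18 with 1 library left out, and in SW620 alone -0.069 in cells under the cell-cycle limit and -1.15 to 1.50 on leaving out. For DKK4 it was -1.01 in cells under that limit and -0.25 to 0.55 on leaving out, and in SW620-TET2CD alone -1.04 and -0.33 to 0.48. Leaving out 1 library gave -1.57 to 2.21 (DKK4, day 9 against 6), -2.28 to 1.89 (DKK4, day 12 against 9), -1.68 to 0.28 (DKK1, day 12 against 9) and -0.30 to 2.46 (DKK1, day 15 against 12). Where the SW620-TET2CD library of a day is left out, the DKK4 step rests on at most 1 UMI. For genes past the threshold in no fit, the sign changed in 140 of 945 alternatives. The cause of these changes was not tested. Over all genes, the versions differed for 696 genes, 1489 without the filter and 46 without the day block. In single cells the time effect differed between versions for 0 genes, and for 15 without the filter. Day 9 against day 6 gave 155, 356 with DESeq2, 28 in cells under the cell-cycle limit and 1 to 1363 on leaving out. Day 12 against day 9 gave 7348, and 4106 in cells under the limit. DKK4-high against DKK4-negative cells gave 964 (37.0% higher) and 638 with DESeq2 (75.7% higher), and late against early 9587 (50.7% higher) with 63.2% higher under upper-quartile factors. Bulk outside against inside gave 0, 23 with DESeq2, 472 without the filter and 1 with limma on log2(TPM + 1), and the versions in bulk 73, 703, 2239 and 14. Bulk fits with a library left out have no residual degree of freedom and give values only. Depth limits DKK4 in SW620, where 3 UMIs amount to 0.0406 to 0.0591 CPM in a library.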
